A study of Mus musculus with 2 samples.

Results

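The 77 genes described here are the potassium channel genes of mouse hindbrain neurons: every gene of the deposited tables whose symbol starts with Kcn and that had at least 20 counted RNA molecules (UMIs, unique molecular identifiers) over both libraries, out of 23912 genes in all. Of 92 such symbols in the tables, 15 fell under the 20 UMIs. The 77 hold 73 protein-coding genes and 4 antisense transcripts. By subfamily, 4 are Kcna, 2 Kcnb, 4 Kcnc, 3 Kcnd, 10 silent subunits of the Kcnf, Kcng, Kcns and Kcnv kinds, 7 Kcnh, 11 Kcnj, 9 Kcnk, 7 Kcnm, Kcnn, Kcnt and Kcnu, 5 Kcnq and 11 auxiliary subunits.

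Per the series' design, the nuclei came from hindbrain neurons that send axons to the lumbar spinal cord, where a retrograde virus carrying a nuclear green protein (AAV-retro-H2B-GFP) had been injected, and that had been active under a painful condition. One library came from mice labelled SNI with brush and the other from mice labelled hot water bath. Both were TRAP2 mice aged 8-12 wk, a strain that records activity through a Cre recombinase driven by the Fos gene. Hindbrains of the same treatment were pooled, in a number not stated in the labels, before the nuclei were sorted and put through the 10x single-nucleus assay, and no untreated library is part of the data analysed here. With 1 pooled library for each treatment there was no test between treatments: each ratio compares 2 libraries, and each interval covers counting error only.

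Potassium channels let potassium leave the cell and so set the resting potential, end the action potential and pace firing. Voltage-gated subunits (Kcna to Kcnd, Kcnh, Kcnq) open on depolarisation, calcium- and sodium-activated ones (Kcnm, Kcnn, Kcnt) follow ion entry, inward rectifiers (Kcnj) pass current near rest and tandem-pore channels (Kcnk) carry leak. Auxiliary subunits (Kcnab, Kcnip, Kcnmb) change the gating or the surface level of the pore-forming ones.

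After doublets and non-neuronal nuclei were left out, the SNI with brush library kept 263 nuclei and the hot water bath library 423. Nuclei with at least 10 UMIs of Tph2, the serotonin-synthesis gene, were called Tph2 nuclei (3 in SNI with brush, 26 in hot water bath). Among the others with at least 3 transmitter UMIs, those with at most 25% of them from Slc17a6, the vesicular glutamate transporter, and the rest from Gad1, Gad2 and Slc6a5 were called inhibitory (100 in SNI with brush, 61 in hot water bath), and those with at least 75% from Slc17a6 glutamatergic (110 in SNI with brush, 253 in hot water bath). The serotonin transporter gene Slc6a4, which the rule did not use, reached 1118 CPM, its UMIs scaled to 1e+06 over all genes, in Tph2 nuclei of SNI with brush and 312 CPM in those of hot water bath, against 0.767 CPM in glutamatergic nuclei of SNI with brush and 0.294 CPM in those of hot water bath. In Tph2 nuclei the serotonergic factor Fev stood at 6.61 CPM in SNI with brush and 5.48 CPM in hot water bath. Its SNI with brush value is 1 UMI. Fev had 0 CPM in inhibitory and glutamatergic nuclei of SNI with brush, and 0.917 and 0.0979 CPM in those of hot water bath. Tph2 nuclei of hot water bath also held Gad2 at 317 CPM and Gad1 at 60.2 CPM, against 328 and 93.1 CPM in inhibitory nuclei. In SNI with brush Gad2 had 86.0 CPM in Tph2 and 206 CPM in inhibitory nuclei. The make-up of the inhibitory class differed between the libraries. Its Slc6a5 level was 230 CPM in SNI with brush and 71.5 CPM in hot water bath. Gad2 had 206 CPM in SNI with brush and 328 CPM in hot water bath, and Gad1 106 CPM and 93.1 CPM. The part of this in any ratio that uses inhibitory nuclei was not tested. No barcode was shared by the libraries. Median depth per nucleus lay between 31922.5 and 41951 UMIs in these classes.

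The libraries stood apart in other ways. The SNI with brush library held 18 non-neuronal nuclei, 11 of them liver-like by their leading genes (albumin and other hepatocyte genes), and the hot water bath library held 0. In the neuronal nuclei kept, all 8 hepatocyte markers were found in SNI with brush, at 59.3 CPM summed, against 3 of 8 in hot water bath, at 0.678 CPM summed, with Alb, Apob, Ahsg, Fgb and Serpina1c at 0. The microglia list summed to 299.6 CPM in SNI with brush and 118 CPM in hot water bath, and the oligodendrocyte list to 180.2 CPM in SNI with brush and 74.7 CPM in hot water bath. Mitochondrial RNA made up 0.468% of UMIs in SNI with brush and 0.148% in hot water bath. The part of these differences in any ratio between the libraries was not tested. The 77 channel genes took 0.105% of UMIs in the liver-like nuclei, against 1.35% in neuronal nuclei of the same library.

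A few long genes held most of the channel RNA. Kcnip4, a cytoplasmic calcium-binding subunit that assembles with Kcnd channels, took 30.9% of all channel UMIs in SNI with brush and 31.1% in hot water bath. Kcnd2, the main pore-forming subunit of the somatodendritic A-type current, took 14.4% in SNI with brush and 13.8% in hot water bath. Levels of different genes were compared only per kilobase of annotated span, introns included. On that scale Kcna1, a low-threshold channel of axons, stood first in SNI with brush at 23.7 CPM per kb, and further down the order Kcna2 had 7.95 and the antisense transcript Kcnq1ot1 6.47 CPM per kb. In hot water bath the order began with Kcnq1ot1 at 12.4 CPM per kb, Kcna1 at 9.83, Kcnip4 at 4.69 and Kcnd2 at 4.61 CPM per kb. Kcnip4 and Kcnd2 were close to each other in both libraries on this scale (3.67 and 3.76 CPM per kb in SNI with brush). A median nucleus had UMIs of 34 of the 77 genes in SNI with brush and of 32 in hot water bath.

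Together the 77 genes took 1.27% of UMIs in Tph2 nuclei, 1.30% in inhibitory and 1.38% in glutamatergic nuclei of SNI with brush. In hot water bath the shares were 1.09% in Tph2, 1.43% in inhibitory and 1.81% in glutamatergic nuclei. The subfamily sums show where the Tph2 nuclei of hot water bath stood apart. Kcnh channels summed to 74.8 CPM in Tph2 nuclei, against 552 CPM in inhibitory and 1089 CPM in glutamatergic nuclei, and auxiliary subunits to 1478 CPM, against 3907 CPM in inhibitory and 6541 CPM in glutamatergic nuclei. Kcnq channels ran the other way, at 3378 CPM in Tph2 nuclei, against 2267 CPM in inhibitory and 1887 CPM in glutamatergic nuclei. Most of each gap lay in a single gene, Kcnh7, Kcnip4 and Kcnq5 in turn, whose values are given below. Counted by gene against glutamatergic nuclei, 4 of 6 Kcnh genes were lower by more than 1.5-fold and 1 was higher. Of 9 auxiliary genes 5 were lower and 2 higher, and of 5 Kcnq genes 2 were higher and 0 lower. Over all genes 26% were lower and 14.2% higher.

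**Figure D1:**
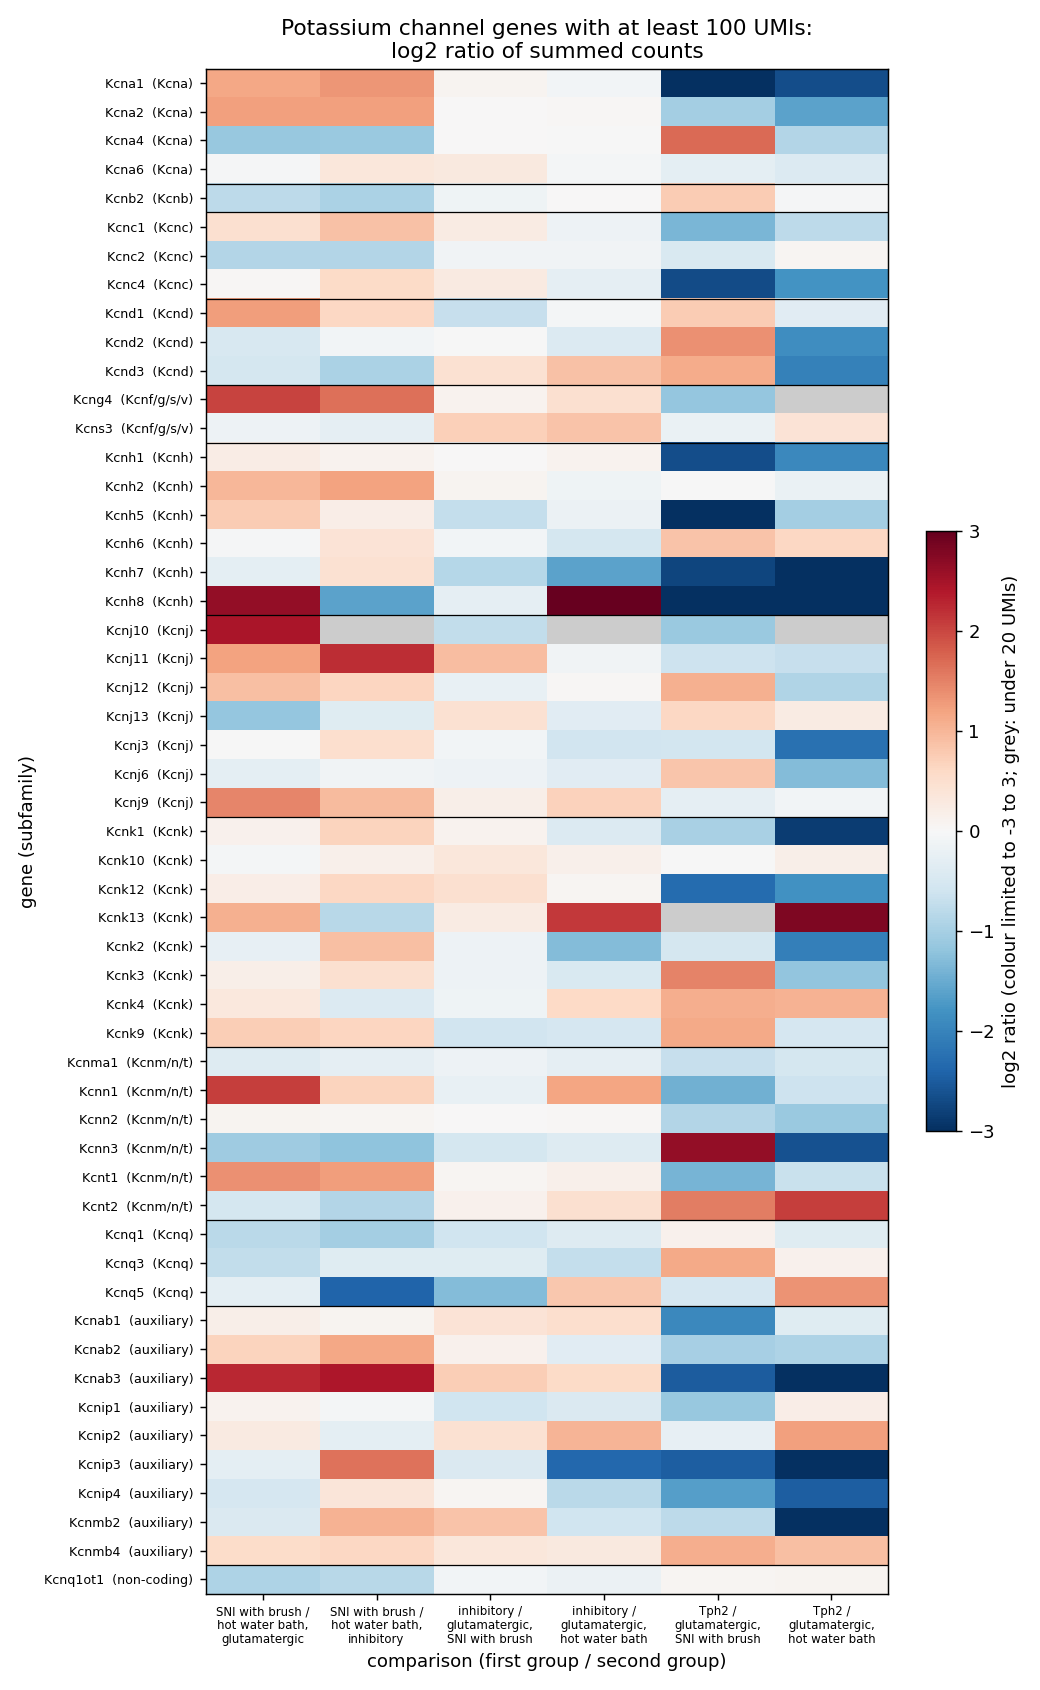
Log2 ratio of summed counts for potassium channel genes with at least 100 UMIs, in rows by subfamily; columns give, from the left, SNI with brush divided by hot water bath in glutamatergic and in inhibitory nuclei, inhibitory over glutamatergic nuclei in each library, and Tph2 over glutamatergic nuclei in each library. The darkest cells are in the Tph2 columns, as for Kcnh7 (-6.62 in hot water bath), while the inhibitory over glutamatergic columns are pale apart from a few genes such as Kcnh8 (3.95 in hot water bath).

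Tph2 nuclei carried less RNA of many channel genes than glutamatergic nuclei of the same library. In hot water bath, which holds 26 of the 29 Tph2 nuclei, 31 of the 58 channel genes with at least 20 UMIs (53.4%) were lower in Tph2 nuclei by more than 1.5-fold and 9 (15.5%) were higher. Over all 14571 genes that met the same count, 26% were lower and 14.2% were higher. The median log2 ratio was -0.64 over the channel genes and -0.12 over all genes. For 5 of the 58 the Tph2 sum was 0: with these set to the bound that 3 counts allow, 28 were lower (23.7% over all genes) and the median was -0.51. In SNI with brush, which has 3 Tph2 nuclei, 27 of 60 were lower and 19 higher (27.3% and 28.8% over all genes), 17 and 19 at the bound (14.3% and 28.8%). Scaling by size factors moved all SNI with brush ratios of this kind by -0.26, which gave 31 lower and 14 higher of the channel genes, and 4763 lower and 2574 higher in place of 3620 and 3829 of all genes.

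In both libraries 20 of 55 channel genes (36.4%) were lower in Tph2 nuclei by more than 1.5-fold, against 12.2% of all genes, and 5 were higher, against 6.57%. With sums of 0 at their bound, 14 were lower in both, against 6.52% of all genes. Among these were Kcna1, Kcna2, Kcnc1, Kcnh1, Kcnh5, Kcnh7, Kcnh8, Kcnk1, Kcnn2, Kcnt1, Kcnab2, Kcnip4 and Kcnmb2. None belongs to the Kcnb, Kcnd, Kcnj or Kcnq subfamilies. For several of them the SNI with brush value rests on few UMIs in its 3 Tph2 nuclei. Kcnh5 had 0 UMIs in each, Kcnh1 had 0, 0 and 1, and Kcnab2 had 0, 3 and 1. Kcna2 and Kcnt1 each had 5, 1 and 2. In hot water bath alone, 2 of 3 Kcnd genes and 5 of 7 Kcnj genes were lower than in glutamatergic nuclei, against 26% of all genes. At the bound 4 of the 7 Kcnj genes were lower. Of the Kcnb and Kcnq genes 0 were lower there. Against inhibitory nuclei, 25 of 46 were lower and 5 higher in hot water bath (24% and 10.6% of all genes), and 24 of 52 lower and 16 higher in SNI with brush (30.6% and 24.8%; 18 lower and 17.5% at the bound). Taken over both libraries, 16 of 43 were lower in both (11.7% of all genes), 14 of them at the bound (8.49%), and 2 were higher (5.35%), Kcnt2 and Kcnq3. Both comparisons use the same Tph2 nuclei, so they do not stand for each other.

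**Figure D2:**
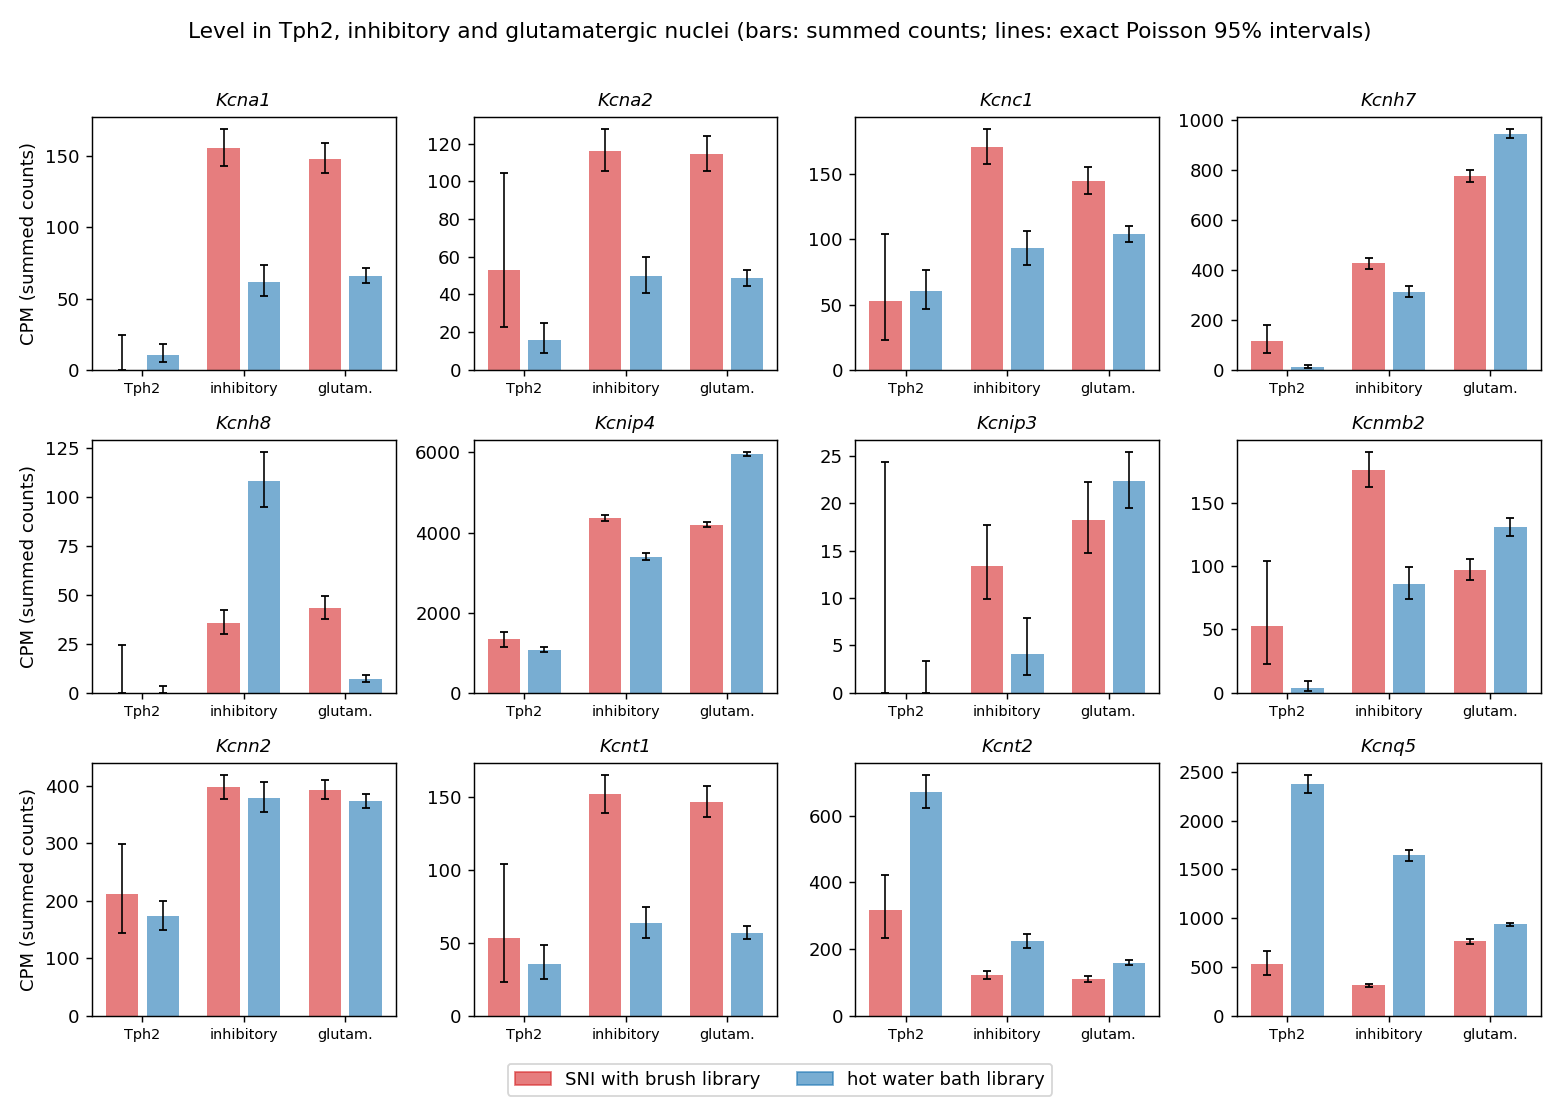
CPM of 12 potassium channel genes in Tph2, inhibitory and glutamatergic nuclei, with the SNI with brush library in red and the hot water bath library in blue; bars are summed counts and lines exact Poisson 95% intervals (counting error only). Kcnh7 and Kcnip4 are low in Tph2 nuclei of both libraries, Kcnt2 is high in those of hot water bath (672 CPM) while its SNI with brush bar rests mostly on 1 of 3 nuclei, and Kcnh8 is high in inhibitory nuclei of hot water bath alone (108 CPM).

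Among the Kcna genes, Kcna1 had 0 CPM in Tph2 nuclei, 156 CPM in inhibitory and 148 CPM in glutamatergic nuclei of SNI with brush. In hot water bath it had 10.0 CPM in Tph2 nuclei, 61.9 CPM in inhibitory and 66.1 CPM in glutamatergic nuclei, a log2 ratio to glutamatergic nuclei of -2.66 (95% interval -3.73 to -1.87). The 0 UMIs of SNI with brush put Kcna1 at least 7.48-fold lower in Tph2 nuclei, from 3 counts over the 3 nuclei. Kcna2, which joins Kcna1 in axonal channels, had 15.5 CPM in Tph2 nuclei and 48.6 CPM in glutamatergic nuclei of hot water bath, and 52.9 CPM in Tph2 and 114 CPM in glutamatergic nuclei of SNI with brush. The 3 Tph2 nuclei of SNI with brush had 119, 14.4 and 50.2 CPM of Kcna2, so 1 of them stood above the glutamatergic level. After each nucleus was thinned to 9000 UMIs, 2 of 26 Tph2 nuclei of hot water bath (7.69%) had a Kcna1 UMI, against 97 of 253 glutamatergic nuclei (38.3%). Unthinned, the shares were 34.6% in Tph2 nuclei and 75.5% in glutamatergic nuclei. Of the 11 liver-like nuclei, with a median depth of 22273 UMIs, 0 had a Kcna1 UMI after thinning and 18.2% before it.

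Kcnc1, a fast high-threshold channel of rapidly firing neurons, was also lower in Tph2 nuclei. It had 60.2 CPM in Tph2 nuclei and 104 CPM in glutamatergic nuclei of hot water bath, and 52.9 CPM in Tph2 and 145 CPM in glutamatergic nuclei of SNI with brush. The 3 Tph2 nuclei of SNI with brush had 119, 0 and 75.3 CPM of Kcnc1, on 5, 0 and 3 UMIs. Kcnc2, of the same subfamily, was within 1.5-fold in hot water bath, with 764 CPM in Tph2 nuclei and 730 CPM in glutamatergic nuclei. In SNI with brush Kcnc2 was also within 1.5-fold (log2 ratio -0.46), but the 3 Tph2 nuclei had 0, 591 and 50.2 CPM, so that sum rests mostly on 1 nucleus. Of the delayed rectifiers of the soma, Kcnb2 had 1043 CPM in Tph2 nuclei and 1078 CPM in glutamatergic nuclei of hot water bath (log2 ratio -0.05, -0.14 to 0.04).

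Kcnd2 and Kcnd3, pores of the A-type current, went opposite ways in the 2 libraries. In hot water bath Kcnd2 had 712 CPM in Tph2 nuclei and 2580 CPM in glutamatergic nuclei (log2 ratio -1.86, -1.96 to -1.75), and Kcnd3 had 28.3 CPM in Tph2 and 117 CPM in glutamatergic nuclei. In SNI with brush Kcnd2 had 4749 CPM in Tph2 nuclei and 1837 CPM in glutamatergic nuclei. That Tph2 sum rests on 1 nucleus: the 3 nuclei had 16186, 533 and 50.2 CPM, and the first held 94.6% of the UMIs. Kcnd3 repeated this, with 96.2% of its Tph2 UMIs in 1 nucleus of SNI with brush. In the 26 Tph2 nuclei of hot water bath Kcnd2 ranged from 92.7 CPM to 1731 CPM with a median of 671 CPM. Kcna4, Kcnj6, Kcnj12, Kcnk3 and Kcnn3 also went opposite ways in the libraries, so that 7 of 55 did, against 6.68% of all genes.

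Kcnh7, an erg-type channel, showed the widest gap among the 58 compared in hot water bath. It had 9.13 CPM in Tph2 nuclei of hot water bath, 312 CPM in inhibitory and 945 CPM in glutamatergic nuclei, which puts Tph2 nuclei 98.6-fold below glutamatergic ones (log2 ratio -6.62, -7.75 to -5.81). In SNI with brush it had 112 CPM in Tph2, 425 CPM in inhibitory and 775 CPM in glutamatergic nuclei (-2.74, -3.57 to -2.10 for Tph2 over glutamatergic). Of the 17 Tph2 UMIs in SNI with brush, 88.2% came from 1 nucleus. A thinned UMI of Kcnh7 was found in 1 of 26 Tph2 nuclei of hot water bath (3.85%), 33 of 61 inhibitory nuclei (54.1%) and 227 of 253 glutamatergic nuclei (89.7%), and in 0 of 11 liver-like nuclei. Unthinned, the shares were 23.1% in Tph2, 75.4% in inhibitory, 94.9% in glutamatergic and 27.3% in liver-like nuclei.

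The other Kcnh genes were mostly lower as well. Kcnh1, an eag-type channel, had 13.7 CPM in Tph2 nuclei and 53.8 CPM in glutamatergic nuclei of hot water bath. Kcnh5, its closest relative, had 30.1 CPM in Tph2 and 61.8 CPM in glutamatergic nuclei of hot water bath. Kcnh8, of the elk type, had 0 UMIs in all 29 Tph2 nuclei, which puts it at least 2.54-fold below glutamatergic nuclei and at least 39.5-fold below inhibitory nuclei of hot water bath. Kcnh2, the erg-type channel also found in heart, was within 1.5-fold in both libraries, at 12.8 CPM in Tph2 and 15.2 CPM in glutamatergic nuclei of hot water bath.

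Among the inward rectifiers, Kcnj3 and Kcnj6 form channels opened by G proteins, the route by which serotonin autoreceptors act. Kcnj3 had 82.1 CPM in Tph2 nuclei and 387 CPM in glutamatergic nuclei of hot water bath (log2 ratio -2.23, -2.55 to -1.93), but 258 CPM in Tph2 and 384 CPM in glutamatergic nuclei of SNI with brush (-0.56, -1.07 to -0.12). The 3 Tph2 nuclei of SNI with brush had 71.5, 432 and 150.6 CPM of Kcnj3, with most of its 39 UMIs from 1 of them. Kcnj6 had 39.2 CPM in Tph2 and 97.2 CPM in glutamatergic nuclei of hot water bath, and 139 CPM in Tph2 and 79.5 CPM in glutamatergic nuclei of SNI with brush, where the 3 Tph2 nuclei had 47.7, 72.0 and 351 CPM. Kcnj9, of the same group, did not pass 1.5-fold in either library. Kcnj16, a partner of glial Kcnj10, had 7 UMIs in Tph2 nuclei and 5 in glutamatergic nuclei of hot water bath and was under the count needed.

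Of the leak channels, Kcnk1 had 3.65 CPM in Tph2 nuclei and 29.5 CPM in glutamatergic nuclei of hot water bath, and 13.2 CPM in Tph2 and 32.4 CPM in glutamatergic nuclei of SNI with brush, on 4 and 2 Tph2 UMIs. Kcnk2, a mechanosensitive leak channel, had 14.6 CPM in Tph2 and 61.9 CPM in glutamatergic nuclei of hot water bath (log2 ratio -2.04, -2.90 to -1.37). Its relative Kcnk10 did not differ by 1.5-fold, at 121 CPM in Tph2 and 108 CPM in glutamatergic nuclei of hot water bath. Kcnk13, a channel blocked by halothane, had 10.0 CPM in Tph2 and 1.47 CPM in glutamatergic nuclei of hot water bath, on 11 and 15 UMIs.

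The calcium- and sodium-activated channels split. Kcnn2, a small-conductance channel that follows calcium entry, had 173 CPM in Tph2 nuclei and 373 CPM in glutamatergic nuclei of hot water bath, and 212 CPM in Tph2 and 394 CPM in glutamatergic nuclei of SNI with brush. Kcnn2 was also found in the 11 liver-like nuclei, with 78 of their 301005 UMIs. The 3 Tph2 nuclei of the same library had 6, 13 and 13 Kcnn2 UMIs among 151204. Its level in the liver-like nuclei was therefore not below that in Tph2 nuclei. Kcnt1, a sodium-activated channel, had 35.6 CPM in Tph2 and 56.8 CPM in glutamatergic nuclei of hot water bath, and 52.9 CPM in Tph2 and 147 CPM in glutamatergic nuclei of SNI with brush. Its relative Kcnt2 was higher in Tph2 nuclei, with 672 CPM against 159 CPM in glutamatergic nuclei of hot water bath (log2 ratio 2.08, 1.95 to 2.20) and 317 CPM against 111 CPM in SNI with brush (1.53, 1.06 to 1.95). In SNI with brush 81.2% of the Kcnt2 UMIs of Tph2 nuclei came from 1 nucleus, and the 3 nuclei had 119, 562 and 100.4 CPM, so that without that nucleus the others stood near the 111 CPM of glutamatergic nuclei. In hot water bath the median Tph2 nucleus had 645 CPM, and 24 of 26 (92.3%) had a thinned Kcnt2 UMI, against 37 of 61 inhibitory (60.7%) and 133 of 253 glutamatergic nuclei (52.6%) and 0 of 11 liver-like nuclei. Unthinned, the shares were 96.2% in Tph2, 78.7% in inhibitory, 71.5% in glutamatergic and 36.4% in liver-like nuclei. Kcnma1, the large-conductance calcium-activated channel, had 701 CPM in Tph2 and 1013 CPM in glutamatergic nuclei of hot water bath, within 1.5-fold.

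Kcnq5, a subunit of the M current that damps repetitive firing, had 2375 CPM in Tph2 nuclei of hot water bath, 1644 CPM in inhibitory and 935 CPM in glutamatergic nuclei (log2 ratio of Tph2 to glutamatergic nuclei 1.35, 1.28 to 1.41), and its 26 Tph2 nuclei ranged from 34.0 to 5258 CPM with a median of 2183 CPM. In SNI with brush Kcnq5 had 529 CPM in Tph2, 311 CPM in inhibitory and 761 CPM in glutamatergic nuclei. Kcnq3, another M-current subunit, had 916 CPM in Tph2 nuclei, 514 CPM in inhibitory and 842 CPM in glutamatergic nuclei of hot water bath, and 1111 CPM in Tph2, 398 CPM in inhibitory and 509 CPM in glutamatergic nuclei of SNI with brush. Kcnh6, Kcnk4 and Kcnmb4 were higher in Tph2 than in glutamatergic nuclei in both libraries, but each rests on 1 Tph2 UMI in SNI with brush.

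The auxiliary subunits gave some of the lowest Tph2 values. Kcnip4 had 1070 CPM in Tph2 nuclei, 3398 CPM in inhibitory and 5968 CPM in glutamatergic nuclei of hot water bath, and 1329 CPM in Tph2, 4363 CPM in inhibitory and 4200 CPM in glutamatergic nuclei of SNI with brush. The 3 Tph2 nuclei of SNI with brush had 0, 2608 and 502 CPM of Kcnip4, all below the glutamatergic level, with most of the UMIs from 1 nucleus. Kcnip3, a Kcnd partner also known as a calcium-sensitive repressor of transcription, had 0 UMIs in all 29 Tph2 nuclei, which puts it at least 8.16-fold below glutamatergic nuclei of hot water bath (22.3 CPM). Kcnip1 did not differ by 1.5-fold there, with 258 CPM in Tph2 nuclei and 226 CPM in glutamatergic nuclei. Kcnmb2, a subunit that inactivates Kcnma1 channels, had 3.65 CPM in Tph2 and 131 CPM in glutamatergic nuclei of hot water bath (log2 ratio -5.00, -7.04 to -3.81), and 52.9 CPM in Tph2 and 97.2 CPM in glutamatergic nuclei of SNI with brush, where its 8 Tph2 UMIs came from 1 nucleus. Kcnab2, a cytoplasmic partner of Kcna channels, had 19.2 CPM in Tph2 and 37.0 CPM in glutamatergic nuclei of hot water bath.

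For 3 of these genes that were lower or higher in Tph2 nuclei of both libraries, the 200 bases before the transcription start are shown as context, 5′ to 3′ on the strand of the gene, from RefSeq (GRCm38.p6). Kcnc1 lies on the plus strand (window chr7:46396268-46396467), Kcnh7 on the minus strand (chr2:63184288-63184487) and Kcnt2 on the plus strand (chr1:140245518-140245717). Capitals mark the GC box GGGCGG or its reverse complement CCGCCC, the letters bound by Sp-family factors.
Kcnc1: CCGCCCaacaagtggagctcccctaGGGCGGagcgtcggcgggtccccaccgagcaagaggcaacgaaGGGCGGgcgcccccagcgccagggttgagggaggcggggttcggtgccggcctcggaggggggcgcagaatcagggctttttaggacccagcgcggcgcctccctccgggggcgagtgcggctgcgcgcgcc
Kcnh7: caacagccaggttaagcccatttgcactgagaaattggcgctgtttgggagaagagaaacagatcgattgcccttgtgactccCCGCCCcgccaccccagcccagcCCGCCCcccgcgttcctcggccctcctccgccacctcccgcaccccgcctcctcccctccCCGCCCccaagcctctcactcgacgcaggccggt
Kcnt2: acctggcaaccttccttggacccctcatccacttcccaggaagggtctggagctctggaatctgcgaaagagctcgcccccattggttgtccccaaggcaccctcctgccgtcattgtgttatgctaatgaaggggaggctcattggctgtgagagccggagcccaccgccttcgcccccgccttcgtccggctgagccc
The Kcnc1 and Kcnh7 windows hold 3 GC boxes each and the Kcnt2 window holds 0. Windows of 54 of the 77 genes were matched, some with several starts, and 35 of their 77 windows (45.5%) held a GC box on either strand, against 31.3% of all 32505 promoter windows of the same length. A match is a description of the letters only.

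Inhibitory and glutamatergic nuclei differed in few channel genes in a way that both libraries shared. Kcns3, a silent subunit that modifies Kcnb channels, was the only one of 62 higher by more than 1.5-fold in inhibitory nuclei of both libraries, against 1.98% of all genes. It had 43.7 CPM in inhibitory and 26.4 CPM in glutamatergic nuclei of SNI with brush (log2 ratio 0.72, 0.39 to 1.07), and 52.7 CPM in inhibitory and 29.3 CPM in glutamatergic nuclei of hot water bath (0.85, 0.53 to 1.16). Kcnh7 was the only one lower in both, against 1.86% of all genes (1.85% with sums of 0 at their bound). Its log2 ratio was -0.87 (-0.95 to -0.78) in SNI with brush and -1.60 (-1.71 to -1.49) in hot water bath. These 2 counts are near the background share.

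Kcnq5 and Kcnmb2 passed 1.5-fold in opposite directions, 2 of 62 against 1.68% of all genes. Kcnq5 was lower in inhibitory nuclei of SNI with brush (311 CPM against 761 CPM in glutamatergic nuclei; log2 ratio -1.29, -1.39 to -1.20) and higher in those of hot water bath (1644 CPM against 935 CPM in glutamatergic nuclei; 0.81, 0.76 to 0.87). Kcnmb2 had 176 CPM in inhibitory and 97.2 CPM in glutamatergic nuclei of SNI with brush, and 85.8 CPM in inhibitory and 131 CPM in glutamatergic nuclei of hot water bath. In the single libraries 4 of 65 were higher and 10 lower in SNI with brush (8.75% and 6.34% of all genes), and 13 of 63 higher and 6 lower in hot water bath (10.9% and 9.77%, or 9.72% lower with sums of 0 at their bound).

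Some genes passed 1.5-fold between the classes in hot water bath but not in SNI with brush. Kcnh8 had 108 CPM in inhibitory and 6.95 CPM in glutamatergic nuclei of hot water bath (log2 ratio 3.95, 3.57 to 4.36), and 35.6 CPM in inhibitory and 43.3 CPM in glutamatergic nuclei of SNI with brush (-0.28, -0.61 to 0.04). A thinned Kcnh8 UMI was found in 15 of 61 inhibitory (24.6%) and 12 of 253 glutamatergic nuclei (4.74%) of hot water bath, and in 18 of 100 inhibitory (18%) and 17 of 110 glutamatergic nuclei (15.5%) of SNI with brush, and in 0 of 11 liver-like nuclei. Unthinned, the shares were 32.8% in inhibitory and 9.09% in glutamatergic nuclei of hot water bath, and 29% in inhibitory and 30.9% in glutamatergic nuclei of SNI with brush. Kcnip3 had 4.13 CPM in inhibitory and 22.3 CPM in glutamatergic nuclei of hot water bath (-2.36, -3.58 to -1.49), and 13.4 CPM in inhibitory and 18.2 CPM in glutamatergic nuclei of SNI with brush (-0.44, -0.98 to 0.07). Kcnk2 had 24.8 CPM in inhibitory and 61.9 CPM in glutamatergic nuclei of hot water bath, and 46.8 CPM in inhibitory and 52.3 CPM in glutamatergic nuclei of SNI with brush. Kcnd3 had 215 CPM in inhibitory and 117 CPM in glutamatergic nuclei of hot water bath, and 111 CPM in inhibitory and 81.4 CPM in glutamatergic nuclei of SNI with brush. It was thus higher in inhibitory nuclei of both libraries, with log2 ratios of 0.88 in hot water bath and 0.45 in SNI with brush. Whether these class differences differ between treatments was not tested, since each treatment has 1 library.

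All 4 Kcna genes, Kcnb2, Kcnc1 and Kcnc2 were within 1.5-fold between inhibitory and glutamatergic nuclei in both libraries. Kcna1 had 156 CPM in inhibitory and 148 CPM in glutamatergic nuclei of SNI with brush, and 61.9 CPM in inhibitory and 66.1 CPM in glutamatergic nuclei of hot water bath. For Kcna1 the gap between libraries was wider than the gap between classes.

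Between the libraries the channel genes spread both ways. Over all neuronal nuclei 28 of 76 (36.8%) were higher by more than 1.5-fold in SNI with brush, against 29.9% of all 17489 genes, and 13 (17.1%) were lower, against 8.5%. The median log2 ratio was 0.28 over the channel genes and 0.22 over all genes. Scaling by size factors moved every ratio by -0.22, which gave 25 higher and 15 lower of the channel genes, and 3743 higher and 2422 lower in place of 5224 and 1487 of all genes. In glutamatergic nuclei 26 of 66 were higher and 9 lower (26.5% and 8.36% of all genes), and 23 and 14 with size factors, against 3113 and 2069 of all 15717 genes. In inhibitory nuclei 22 of 58 were higher and 12 lower (30.7% and 8.46%), and 15 and 12 with size factors, against 3237 and 1609 of all 13399 genes. Tph2 nuclei, 3 against 26, gave 13 higher and 10 lower of 32 (34.5% and 16.5%, or 15.2% lower at the bound).

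In both glutamatergic and inhibitory nuclei 15 of 58 were higher in SNI with brush, against 18.3% of all genes. Among these were Kcna1, Kcna2, Kcnd1, Kcng4, Kcnh2, Kcnj9, Kcnj11, Kcnj12, Kcnk9, Kcnn1, Kcnt1, Kcnab2 and Kcnab3. Lower in both were 6, Kcna4, Kcnb2, Kcnc2, Kcnn3, Kcnq1 and Kcnq1ot1, against 2.85% of all genes. With size factors every gene named here kept its direction in both classes, and Kcnd1, Kcnj12, Kcnk9, Kcnn1 and Kcnab2 fell within 1.5-fold in at least 1 class. The libraries' nuclei were pooled by treatment, so treatment and preparation cannot be told apart.

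**Figure D3:**
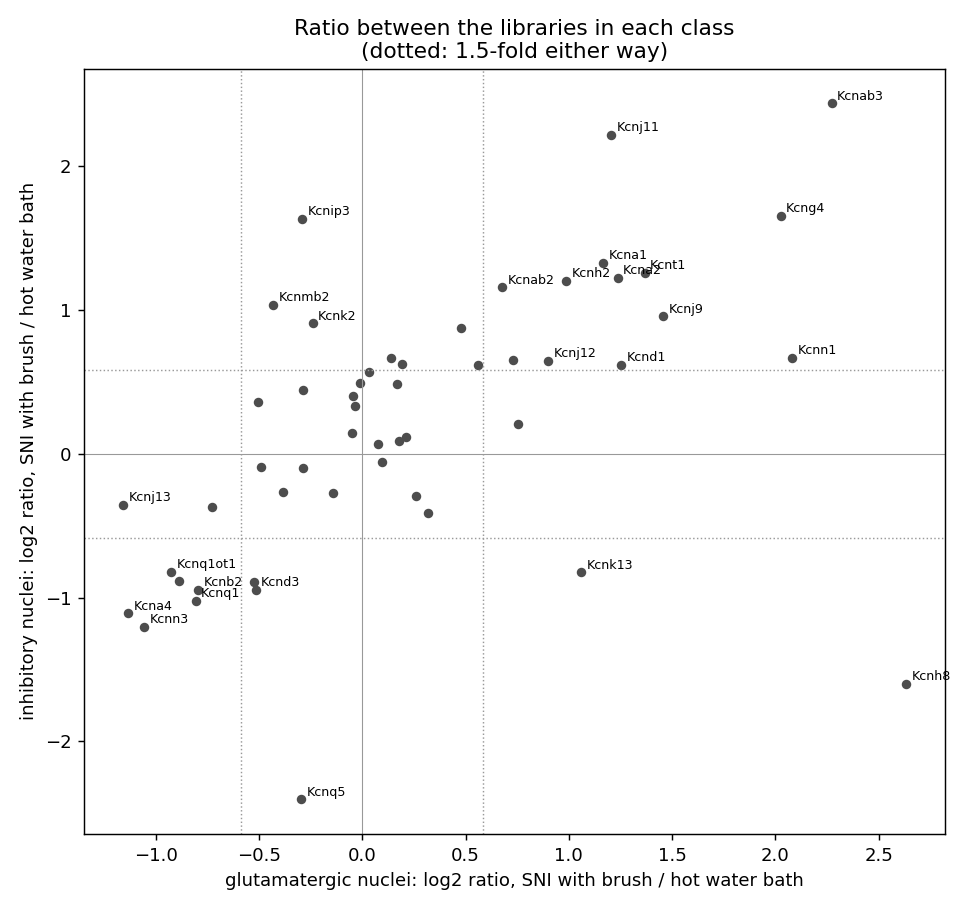
Log2 ratio of SNI with brush to hot water bath in glutamatergic nuclei (horizontal) and inhibitory nuclei (vertical), 1 point for each potassium channel gene plotted, all with at least 100 UMIs; dotted lines mark 1.5-fold either way. Kcnt1, Kcna1 and Kcna2 lie at the upper right, Kcna4 and Kcnn3 at the lower left, and Kcnh8 (2.63 and -1.60) and Kcnq5 (-0.30 and -2.40) away from the diagonal.

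The Kcna genes split in both classes. Kcna1 had 148 CPM in SNI with brush and 66.1 CPM in hot water bath in glutamatergic nuclei (log2 ratio 1.17, 1.02 to 1.32), and 156 CPM in SNI with brush and 61.9 CPM in hot water bath in inhibitory nuclei (1.33, 1.06 to 1.61). Kcna2 had 114 CPM in SNI with brush and 48.6 CPM in hot water bath in glutamatergic nuclei and 116 CPM in SNI with brush and 49.5 CPM in hot water bath in inhibitory nuclei. Kcna4, a fast-inactivating member, ran the other way, with 13.2 CPM in SNI with brush and 29.2 CPM in hot water bath in glutamatergic nuclei (-1.13, -1.54 to -0.76) and 13.4 CPM in SNI with brush and 28.9 CPM in hot water bath in inhibitory nuclei. Kcna6 was within 1.5-fold.

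Among the Kcnc and Kcnb genes, Kcnc2 and Kcnb2 were lower in SNI with brush. Kcnc2 had 394 CPM in SNI with brush and 730 CPM in hot water bath in glutamatergic nuclei (log2 ratio -0.89, -0.96 to -0.82), and 365 CPM in SNI with brush and 675 CPM in hot water bath in inhibitory nuclei. Kcnc1 passed 1.5-fold in inhibitory nuclei (171 CPM in SNI with brush, 93.1 CPM in hot water bath) and not in glutamatergic nuclei (145 CPM in SNI with brush, 104 CPM in hot water bath). Kcnb2 had 621 CPM in SNI with brush and 1078 CPM in hot water bath in glutamatergic nuclei, and 566 CPM in SNI with brush and 1091 CPM in hot water bath in inhibitory nuclei. Kcnd2 was within 1.5-fold in both classes, with 1837 CPM in SNI with brush and 2580 CPM in hot water bath in glutamatergic nuclei. Of the silent subunits, Kcng4 was higher in SNI with brush in both classes, with 7.28 CPM in SNI with brush and 1.76 CPM in hot water bath in glutamatergic nuclei, on 38 and 18 UMIs.

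In the Kcnh subfamily Kcnh2 had 30.1 CPM in SNI with brush and 15.2 CPM in hot water bath in glutamatergic nuclei, and 32.0 CPM in SNI with brush and 13.8 CPM in hot water bath in inhibitory nuclei. Kcnh8 went opposite ways: 43.3 CPM in SNI with brush and 6.95 CPM in hot water bath in glutamatergic nuclei (log2 ratio 2.63, 2.25 to 3.04), but 35.6 CPM in SNI with brush and 108 CPM in hot water bath in inhibitory nuclei (-1.60, -1.92 to -1.29). Kcnk13 was the other gene that did so, 2 of 58 against 1.19% of all genes. Kcnh7 was within 1.5-fold in both classes.

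Among inward rectifiers Kcnj11, the pore of the ATP-sensitive channel, had 4.98 CPM in SNI with brush and 2.15 CPM in hot water bath in glutamatergic nuclei, and 9.47 CPM in SNI with brush and 1.83 CPM in hot water bath in inhibitory nuclei (4 UMIs). Kcnj9 had 19.9 CPM in SNI with brush and 7.25 CPM in hot water bath in glutamatergic nuclei. Kcnj3 was within 1.5-fold, at 384 CPM in SNI with brush and 387 CPM in hot water bath in glutamatergic nuclei. Kcnj13, an epithelial channel gene that overlaps Gigyf2 on the other strand, had 10.7 CPM in SNI with brush and 24.1 CPM in hot water bath in glutamatergic nuclei. Of the leak channels Kcnk9, an acid-sensitive one, was higher in both classes, with 52.3 CPM in SNI with brush and 31.5 CPM in hot water bath in glutamatergic nuclei.

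Kcnt1 had 147 CPM in SNI with brush and 56.8 CPM in hot water bath in glutamatergic nuclei (log2 ratio 1.37, 1.21 to 1.53), and 152 CPM in SNI with brush and 63.3 CPM in hot water bath in inhibitory nuclei (1.26, 0.99 to 1.54). Kcnn1 was higher in both classes, on 46 and 21 UMIs in glutamatergic nuclei. Kcnn3 was lower, with 28.2 CPM in SNI with brush and 58.8 CPM in hot water bath in glutamatergic nuclei (-1.06, -1.33 to -0.80) and 19.5 CPM in SNI with brush and 44.9 CPM in hot water bath in inhibitory nuclei. Kcnn2 and Kcnma1 were within 1.5-fold in both classes.

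Kcnq5 and Kcnq3 were each lower in SNI with brush by more than 1.5-fold in 1 of these classes. Kcnq5 had 311 CPM in SNI with brush and 1644 CPM in hot water bath in inhibitory nuclei (log2 ratio -2.40, -2.50 to -2.31), and 761 CPM in SNI with brush and 935 CPM in hot water bath in glutamatergic nuclei (-0.30, -0.35 to -0.24). Kcnq3 had 509 CPM in SNI with brush and 842 CPM in hot water bath in glutamatergic nuclei (-0.73, -0.79 to -0.66). Kcnq1ot1, the imprinted antisense transcript inside Kcnq1, had 620 CPM in SNI with brush and 1179 CPM in hot water bath in glutamatergic nuclei and 587 CPM in SNI with brush and 1037 CPM in hot water bath in inhibitory nuclei. Kcnq1 itself had 9.01 CPM in SNI with brush and 15.9 CPM in hot water bath in glutamatergic nuclei. The sources used here do not state whether reads were counted by strand. Kcnq1 had 330 UMIs and Kcnq1ot1 25508 UMIs over both libraries, and whether reads of either were counted for the other was not tested. The same holds for Kcnab3, Kcnd3 and Kcnmb4 and their antisense genes.

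Among auxiliary subunits Kcnab3 had 18.6 CPM in SNI with brush and 3.82 CPM in hot water bath in glutamatergic nuclei (log2 ratio 2.27, 1.73 to 2.86), and 30.9 CPM in SNI with brush and 5.5 CPM in hot water bath in inhibitory nuclei (2.44, 1.63 to 3.49). Kcnab2 had 59.2 CPM in SNI with brush and 37.0 CPM in hot water bath in glutamatergic nuclei, and 64.9 CPM in SNI with brush and 28.9 CPM in hot water bath in inhibitory nuclei. Kcnab1 was within 1.5-fold. Kcnip4 was within 1.5-fold in both classes, with 4200 CPM in SNI with brush and 5968 CPM in hot water bath in glutamatergic nuclei and 4363 CPM in SNI with brush and 3398 CPM in hot water bath in inhibitory nuclei.

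Gene length went along with the ratio between the libraries. Of the 76 channel genes compared over all neuronal nuclei, the 38 with a span under 47.3 kb had a median log2 ratio of 0.77 and the 38 longer ones a median of -0.05. Across these genes Spearman's rho between span and ratio was -0.48, a description over 76 genes that share the same 2 libraries. Over all genes, those under the same length had a median of 0.36 and the longer ones -0.01, with a rho of -0.31 over 17454 genes. Kcna1 (5.99 kb) and Kcnab3 (6.79 kb) are short, and Kcnb2 (436 kb), Kcnq5 (564 kb) and Kcnip4 (1135 kb) are long. Kcna4, at 7.86 kb and a log2 ratio of -1.02 over all neuronal nuclei, and Kcnj13, at 8.37 kb and -0.87, are short genes that were lower in SNI with brush. The part of gene length in the ratios was not tested.

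**Figure D4:**
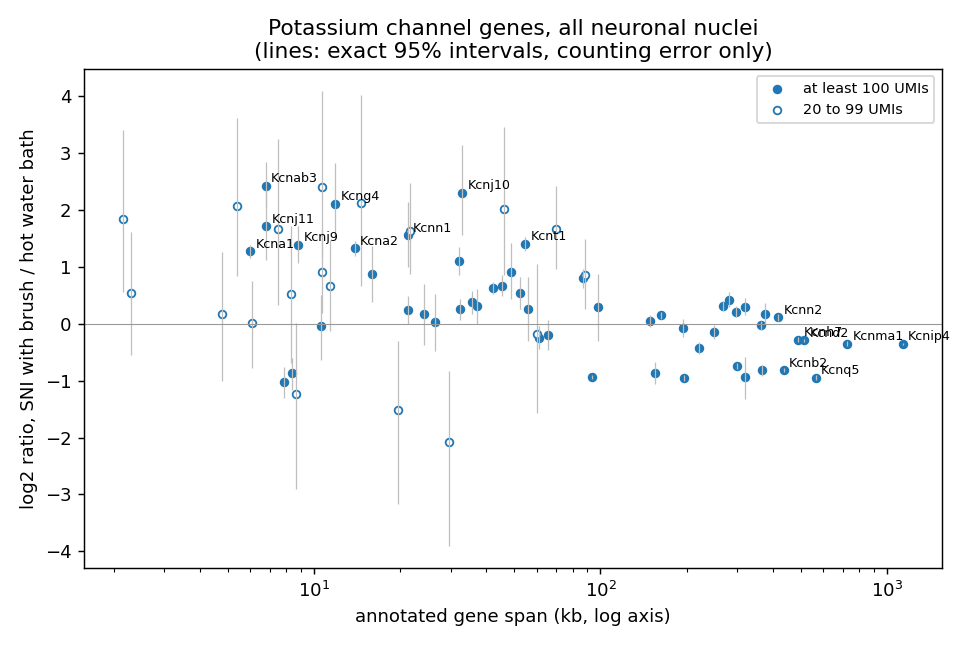
Log2 ratio of SNI with brush to hot water bath in all neuronal nuclei against annotated gene span (kb, log axis) for the potassium channel genes plotted; lines are exact 95% intervals (counting error only), filled points have at least 100 UMIs and open points 20 to 99. Short genes such as Kcnab3 (2.42) and Kcna1 (1.27) lie above 0 and long genes such as Kcnb2 (-0.82) and Kcnq5 (-0.95) below it.

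A list of 26 genes whose products bind, anchor or regulate these channels was followed alongside. Over all neuronal nuclei 8 of 25 (32%) were higher by more than 1.5-fold in SNI with brush and 2 (8%) were lower, near the 29.9% and 8.5% of all genes. Lgi1, a secreted regulator of Kcna channels, had 72.9 CPM in SNI with brush and 29.2 CPM in hot water bath (log2 ratio 1.32). Dpp6, a membrane partner of Kcnd channels, was lower, with 1352 CPM in SNI with brush and 2056 CPM in hot water bath (-0.61). Between inhibitory and glutamatergic nuclei 0 of 23 passed 1.5-fold the same way in both libraries. Dpp10, the other Kcnd partner of its kind, had 5357 CPM in inhibitory and 1334 CPM in glutamatergic nuclei of hot water bath, and 1808 CPM in inhibitory and 1986 CPM in glutamatergic nuclei of SNI with brush. Between Tph2 and glutamatergic nuclei Cntnap1 and Cntnap2, whose products lie beside the node of Ranvier, were lower in both libraries. These 2 of 23 (8.7%) compare with 12.2% of all genes. Cntnap1 had 7 UMIs in Tph2 nuclei of SNI with brush and 21 in those of hot water bath. Cntnap2 had 4029 CPM in Tph2 and 7693 CPM in glutamatergic nuclei of hot water bath, and 2910 CPM in Tph2 and 6146 CPM in glutamatergic nuclei of SNI with brush.

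Several of the 77 genes had few UMIs or held part of them in non-neuronal nuclei. Kcnk5, a leak channel opened by alkaline solution, had 42 UMIs, of which 37 lay in non-neuronal nuclei of SNI with brush, while the whole hot water bath table held 0. It was the only one not compared over all neuronal nuclei. Kcnrg had 20 of its 47 UMIs and Kcnj10, the main glial inward rectifier, 18 of its 100 UMIs in the 18 non-neuronal nuclei. Of the 77 genes, 20 had fewer than 100 UMIs over both libraries, 8 of them silent subunits. Kcnu1, known from sperm, had 4.83 CPM in SNI with brush and 2.65 CPM in hot water bath over all neuronal nuclei.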

How the data were processed

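Both libraries were single-nucleus counts of the 10x assay. The deposited values are whole-number UMI counts per gene and nucleus, and the processing tools were Cell Ranger 5.0 and Seurat on the mm10 build per the submitters' processing notes. Their filters on nuclei and the strand setting of the counting are not stated in any source used here. There were 288 nuclei of SNI with brush among 850 barcodes listed (11298755 UMIs, 9164 to 142954 per nucleus) and 425 of hot water bath among 723 (16344606 UMIs, 10878 to 96057 per nucleus).

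Scrublet in scanpy 1.11.5 called 7 doublets in SNI with brush and 2 in hot water bath, which were left out, as were nuclei in which a non-neuronal marker list summed above 8 neuron markers. The UMIs of all nuclei of a class in 1 library were added up and scaled to CPM, with an exact Poisson 95% interval for each. Log2 ratios had 0.5 UMI added to each sum, with an exact conditional 95% interval from scipy 1.17.1, and needed 20 UMIs over both sums. A sum of 0 gives a bound at 3 counts. Intervals and bounds cover counting error only, nuclei are not replicates, and no p-value was computed. Shares of nuclei were taken after thinning each nucleus to 9000 UMIs, with no nucleus too shallow. The ratio step was tested on simulated data.

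The members and lists were chosen with earlier results of these data known. The rule for named genes took members with at least 100 UMIs, at most 25% of the higher sum from 1 nucleus, and either the extremes of a subfamily or more than 2-fold between libraries, or more than 1.5-fold the same way in both libraries between classes (2-fold for Tph2 nuclei of hot water bath). Kcna6, Kcnj12, Kcnj16, Kcnk5, Kcnma1, Kcnmb4, Kcnrg and Kcnu1 fall outside it in every comparison; they, and values of others outside the comparison that named them, were chosen after their values were seen, as were the 3 promoters. Some genes counted among the members and partners are not reported here by name and are left out of the figures. Printing of the pore signature, planned at first, was not done. Alternatives covered size factors, floors of 1 and 100 UMIs, 2-fold, doublets kept, all nuclei kept, equal weight to classes, the mean of nucleus CPM, class and Tph2 limits, and thinning to 3000 UMIs.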

Additional observations from a re-analysis of the deposited data

Results flagged for a closer look

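Kcnh8 and Kcnk13 were past 1.5-fold in opposite directions in the classes when SNI with brush was set against hot water bath. Kcnh8 had a log2 ratio of 2.63 in glutamatergic nuclei and -1.60 in inhibitory nuclei. Of its 236 UMIs in inhibitory nuclei of hot water bath, 19.1% came from 1 nucleus. Kcnk13 had a log2 ratio of 1.06 in glutamatergic nuclei and -0.82 in inhibitory nuclei, both with intervals that reach across 0, and 50% of its 14 UMIs in inhibitory nuclei of hot water bath came from 1 nucleus. The difference between the classes was not tested, since each treatment has 1 library.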

How the results depend on the processing

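Of 86 alternative counts of channel genes past the threshold, 71 stayed within 1.5 times the count reported and 15 did not. With a floor of 100 UMIs, 16 of 56 were higher in SNI with brush over all neuronal nuclei (25.2% of all genes), 11 of 45 in glutamatergic nuclei (20.7%) and 14 of 41 in inhibitory nuclei (24.7%), and 3 of 42 were higher in Tph2 than in glutamatergic nuclei of hot water bath (9.39%). At 2-fold, 4 of 76 were lower over all neuronal nuclei (3.54% of all genes) and 4 of 66 in glutamatergic nuclei (3.44%). In inhibitory nuclei 12 of 58 were higher (15.3%) and 5 lower (3.4%) at 2-fold. Of 62 compared, 0 were higher (0.494%) and 0 lower (0.824%) by 2-fold in inhibitory than in glutamatergic nuclei of both libraries. That last comparison, at 1.5-fold, gave 2 of 76 higher (5.54% of all genes) and 2 lower (3.56%) at a floor of 1 UMI, 4 of 62 higher (2.25%) with the mean of nucleus CPM, and 3 of 53 lower (1.9%) where classes needed 100% of their transmitter UMIs. Size factors gave 14 of 66 lower in SNI with brush in glutamatergic nuclei (13.2%). The higher floor and the 2-fold threshold admit fewer genes by construction, and for the other settings the cause was not tested. Of the medians 37 stayed and 8 moved, and of single genes 2244 stayed and 206 moved. Of the shares of nuclei with a thinned UMI, 71 stayed and 214 moved at the lower thinning depth. Most of these shares therefore depend on the depth chosen. In Tph2 against glutamatergic nuclei of SNI with brush, 27 lower and 19 higher became 17 lower and 19 higher with sums of 0 at their bound. No paired analysis was possible because each treatment has 1 library. Depth limits the 20 genes with fewer than 100 UMIs and every value of the 3 Tph2 nuclei of SNI with brush.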
